A study of Drosophila melanogaster with 4 samples.

Results

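Listed errors in mitochondrial RNA were followed in mt:CoII and mt:CoIII, 2 of the 9 mitochondrial transcripts with a listed error. A listed error is a base change in the RNA reads. Whether it arose in transcription or at another step was not tested. The pair was chosen by gene identity as subunits of the same enzyme, with earlier results of these data known. mt:CoI, a further subunit of that enzyme, was not part of the pair. mt:CoII and mt:CoIII held 15 of 51 listed errors in the E423P library and 66 of 255 in the WT library. The RNA came from mitochondria isolated from whole adult Drosophila melanogaster at 2 weeks of age that overexpressed the mitochondrial RNA polymerase, in its E423P form (E423P) or in its wild-type form (WT). All flies in the comparison therefore carried an overexpressed polymerase, and flies without one were not analysed here. The labels name no driver, promoter or line for the overexpression. The labels list 2 samples of each genotype, and an error list was analysed for 1 library of each. Each test below compares the 2 libraries, not the genotypes, or compares transcripts within 1 library. Intervals cover counting error only.

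Cytochrome c oxidase, or complex IV, is the last enzyme of the respiratory chain and passes electrons from cytochrome c to oxygen. Its catalytic core is encoded by mitochondrial DNA. Subunit I, from mt:CoI, holds the haems and the copper of the oxygen site. Subunit II, from mt:CoII, carries the copper centre that takes electrons from cytochrome c, and subunit III, from mt:CoIII, is a core subunit without a redox metal. Mitochondrial genes are copied by the mitochondrial RNA polymerase into long precursors, which are cut apart largely at the transfer RNAs between the genes.

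Both genes lie on the plus strand of the mitochondrial genome, and the annotation (Ensembl release 115, BDGP6 assembly) gives each 1 coding exon. mt:CoII (FBgn0013675, transcript FBtr0100863) spans 3083 to 3767 of mitochondrion_genome, 685 bases, between mt:tRNA:Leu-TAA, which ends at 3077, and mt:tRNA:Lys-CTT, which starts at 3768. Its length leaves a remainder of 1 when divided by 3, and the annotation gives it no stop codon. Animal mitochondrial transcripts of this kind gain their stop codon from the poly(A) tail. mt:CoIII (FBgn0013676, transcript FBtr0100868) spans 4736 to 5524, 789 bases, with an annotated stop codon. Its first base is also the last base of mt:ATPase6, which ends at 4736, and mt:tRNA:Gly-TCC follows at 5543.

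The E423P library covered 320614 bases and the WT library 1345044 bases, so the summed coverage of E423P was 0.238 times that of WT. Listed errors came to 15.9 per 100000 covered bases in E423P and 19.0 in WT. How bases were picked for these coverage totals is unknown here, and so are the filters behind the lists. The values therefore do not rank the libraries by error rate. The listed positions had depths from 102 to 294 in E423P and from 103 to 790 in WT, and no listed change reached 1% of the depth at its position (highest 0.980% in E423P and 0.971% in WT). Coverage per transcript is not given in the files used here, so an error rate per transcript could not be computed, and the share of a library's errors that fell in a transcript was used in its place. A share can move with the rate of errors or with the coverage, and the shares alone cannot tell these apart.

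The listed errors of mt:CoII and mt:CoIII covered different stretches of the transcripts. Positions are printed as listed, counted from the start of the transcript, and the files do not say if that count begins at 0 or at 1. In mt:CoII, 9 E423P errors lay between positions 419 and 654 and 17 WT errors between 291 and 643, so neither library listed an error before position 291. The WT depth at position 291 was 107, near the lowest depth of the WT list, 103. Depth before position 291 is not known here, so a stretch without errors is not shown. In mt:CoIII, 6 E423P errors lay between positions 89 and 573, and 49 WT errors between 19 and 742, nearly the whole transcript. Per 1000 annotated bases, mt:CoII held 13.1 E423P errors and 24.8 WT errors, and mt:CoIII held 7.60 and 62.1. These densities are not corrected for depth.

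**Figure D1:**
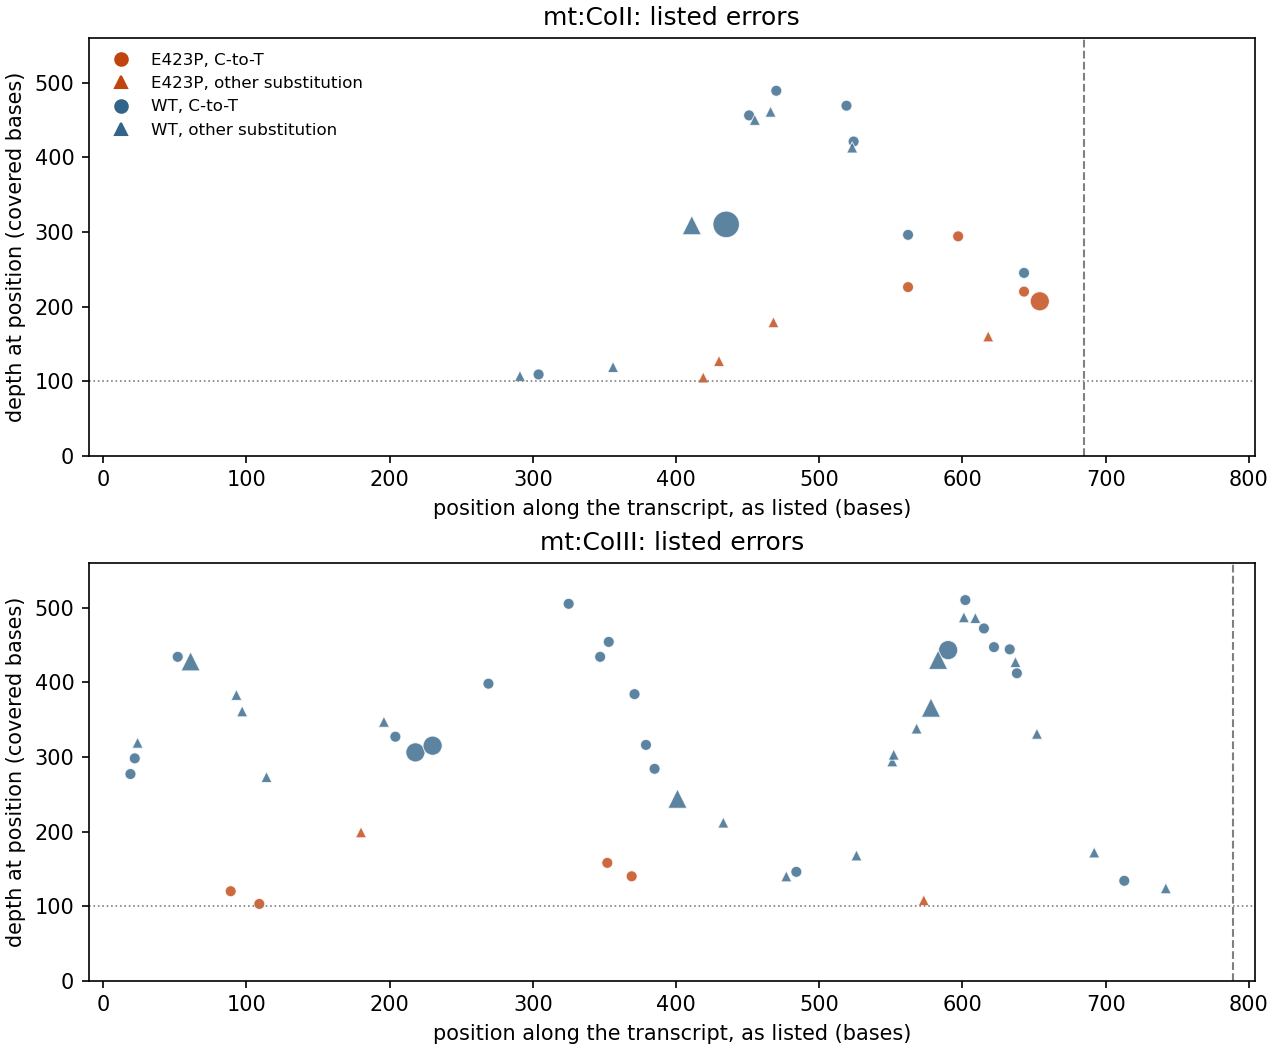
Listed errors of mt:CoII (upper) and mt:CoIII (lower), by position along the transcript in bases (x axis) and depth at that position (y axis), in E423P (orange) and WT (blue). Circles are C-to-T and triangles other substitutions, larger symbols hold 2 or 3 errors, the dashed line is the transcript end and the dotted line a depth of 100. No point lies before position 291 of mt:CoII, where depth is not known, and E423P depths come close to WT depths only towards the end of mt:CoII.

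Depth at the listed WT positions varied several-fold within each transcript. In mt:CoII, the 3 WT errors before position 400 stood at depths of 107 to 119, the 9 between 400 and 499 at 309 to 489, and the 1 beyond 600 at 245. In mt:CoIII, the WT depth reached 434 among the first 100 positions and 505 between 300 and 399. It lay at 140 to 244 between 400 and 499, rose to 510 between 600 and 699, and was 124 to 134 beyond 700. The WT errors of mt:CoIII were most numerous in the windows from 500 to 599 and from 600 to 699, with 10 errors each, and fewest from 100 to 199 and beyond 700, with 2 each. Positions enter the lists only where an error was found, so these are depths of listed positions and not coverage profiles.

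The share of mt:CoII in the list was higher in E423P by an amount that did not pass adjustment. mt:CoII held 9 of 51 errors in E423P (17.6%, 95% Wilson interval 9.57 to 30.3) and 17 of 255 in WT (6.67%, 4.20 to 10.4), an odds ratio of 2.99 (exact interval 1.10 to 7.66). The test was adjusted over the 9 transcripts (two-sided, p = 0.0229 by Fisher's exact test, Benjamini-Hochberg adjusted p = 0.206). mt:CoIII held 6 of 51 errors in E423P (11.8%, 5.51 to 23.4) and 49 of 255 in WT (19.2%, 14.9 to 24.5), an odds ratio of 0.561 (0.185 to 1.43, p = 0.236 and adjusted p = 0.532 by Fisher's exact test). Of the 9 transcripts, 0 passed an adjusted p of 0.05 in Fisher's exact test (0% called), and 1, mt:CoII, had an unadjusted p under 0.05 (11.1%). No other tool was run. The adjusted p of mt:CoII was 0.0414 with only positions at a depth of 150 or more, and 0.0264 without mt:CoI errors in the total, there adjusted over 8 transcripts (Fisher's exact test in both). It was 0.332 when repeats of a change were counted as 1 error, 0.569 without C-to-T errors and 1 with C-to-T errors alone (Fisher's exact test). The depth cut kept unlike parts of the lists. In E423P it kept 7 of 9 errors in mt:CoII, 2 of 6 in mt:CoIII and 29 of 51 in all. In WT it kept 14 of 17, 45 of 49 and 225 of 255. The p-value after this cut is therefore not separate from depth. Leaving out mt:CoI removed 26 of 51 E423P errors and 102 of 255 WT errors. It took a larger part of the E423P list, which by itself raises the mt:CoII odds ratio.

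**Figure D2:**
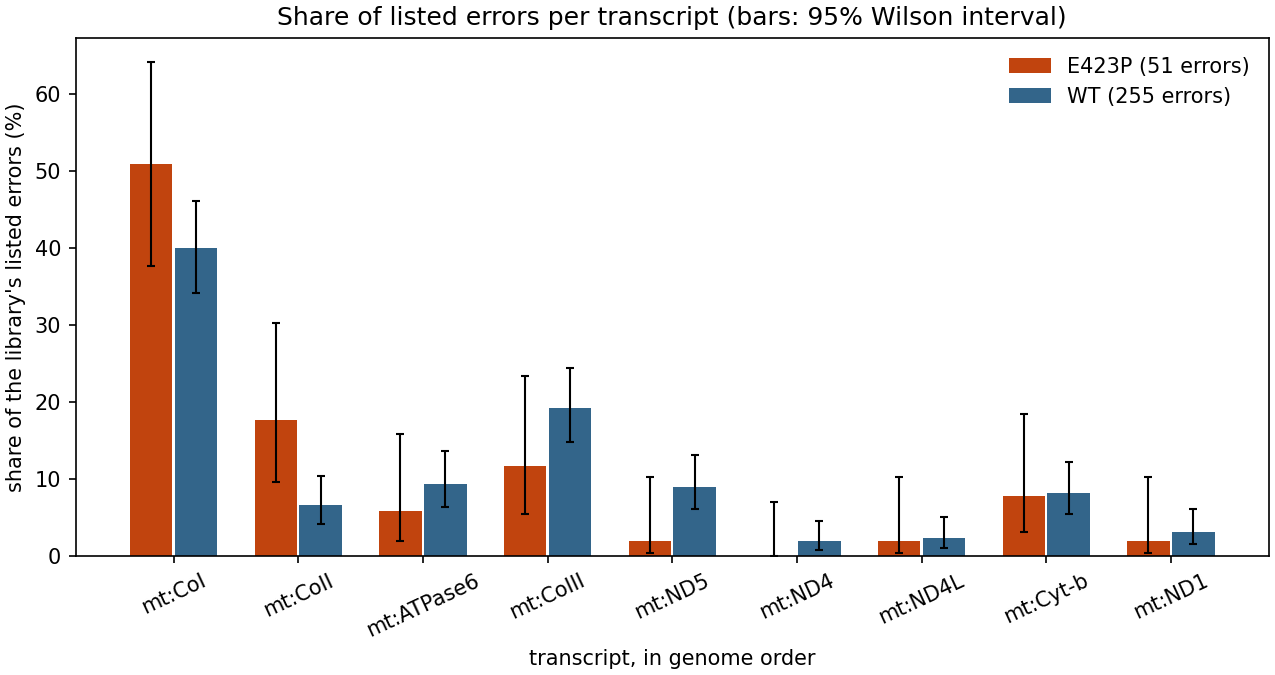
Share of each library's listed errors (y axis, %) in the 9 transcripts with a listed error (x axis, genome order), E423P left of WT, with 95% Wilson intervals. mt:CoII stands at 17.6% in E423P and 6.67% in WT, mt:CoIII at 11.8% and 19.2%, and the E423P intervals are wide because its list holds 51 errors.

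Set directly against each other, mt:CoII had 9 E423P errors to 17 WT errors and mt:CoIII 6 to 49, an odds ratio of 4.23 (exact interval 1.15 to 16.8, p = 0.0152 by Fisher's exact test). This pair was 1 of 36 pairs of transcripts, and the difference did not pass adjustment over them (adjusted p = 0.274 for the Fisher's exact test). mt:CoI, the remaining complex IV transcript in the lists, held 26 of 51 E423P errors and 102 of 255 WT errors (odds ratio 1.56, 0.814 to 2.99, adjusted p = 0.490 by Fisher's exact test). Of the 3 complex IV transcripts, 0 passed the adjusted threshold in either direction.

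Most E423P errors of mt:CoII lay in the last part of the transcript. Of its 9 errors, 6 lay at or beyond position 562, the first position listed in both libraries, and 3 before it. In WT, 2 of 17 lay at or beyond it and 15 before. Depth moved with this difference. At position 562 the depth was 226 in E423P and 296 in WT, a ratio of 0.764, and at position 643 it was 220 in E423P and 245 in WT, a ratio of 0.898. At position 597 the E423P depth was 294, against 274 in WT by interpolation between listed neighbours (ratio 1.07). Before position 562, the ratios in mt:CoII were 0.339, 0.410 and 0.377 at positions 419, 430 and 468.

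Ratios elsewhere were lower than at the end of mt:CoII. In mt:CoIII, 5 positions had ratios from 0.307 to 0.357 (median 0.345). In the other transcripts, 31 positions ran from 0.304 to 0.579 (median 0.402), and the 11 of these listed in both libraries from 0.304 to 0.480. A WT neighbour up to 50 bases away on each side was required. With a farther neighbour, position 618 of mt:CoII gave 0.614 and position 180 of mt:CoIII 0.598. Position 654 of mt:CoII had no WT neighbour beyond it. All ratios lay above the 0.238 of the summed coverage, and E423P positions are listed only at depths above 100. Positions of a library share that library, so the ratios are a description without a test. Without mt:CoII positions from 562 on, mt:CoII held 3 of 45 E423P errors (6.67%) and 15 of 253 WT errors, an odds ratio of 1.13. This step was chosen after the values were seen and itself removes 6 of the 9 E423P errors, so its lower odds ratio follows from the choice and is given without a test. The part of depth in the mt:CoII difference was not tested. The RNA came from mitochondria of whole flies, so the depths cannot be assigned to a cell type.

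**Figure D3:**
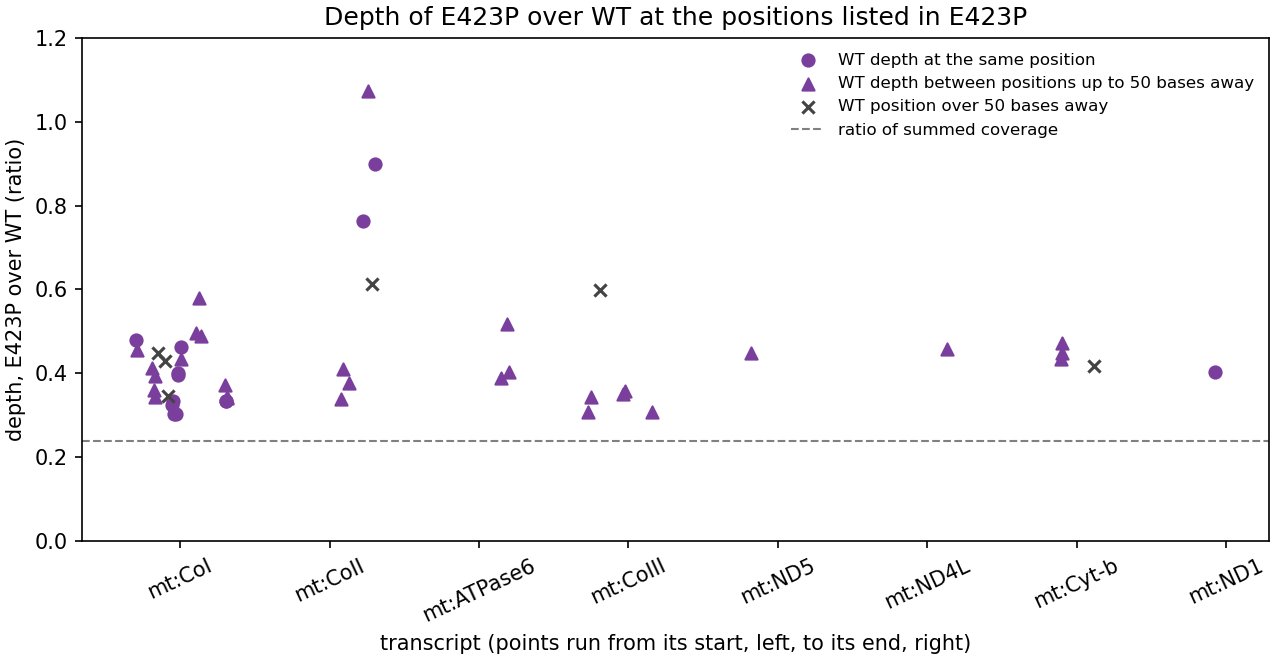
Ratio of E423P to WT depth (y axis) at the positions listed in E423P, by transcript (x axis, points placed from transcript start to end). Circles use the WT depth at the same position, triangles the WT depth interpolated from neighbours up to 50 bases away, crosses farther neighbours, and the dashed line marks the ratio of summed coverage, 0.238. Positions 562, 643 and 597 of mt:CoII, at 0.764, 0.898 and 1.07, stand above the 0.307 to 0.357 of the mt:CoIII triangles. Of the crosses, position 618 of mt:CoII stands at 0.614 and position 180 of mt:CoIII at 0.598.

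C-to-T was the most frequent change in both transcripts. In mt:CoII it made up 5 of 9 errors in E423P and 10 of 17 in WT. In mt:CoIII it made up 4 of 6 errors in E423P and 24 of 49 in WT. Over both transcripts the share was 60% in E423P (9 of 15, 35.7 to 80.2) and 51.5% in WT (34 of 66, 39.7 to 63.2), an odds ratio of 1.41 (0.394 to 5.38, p = 0.582 by Fisher's exact test). With 15 and 66 errors the interval is wide, so neither the size nor the direction of a difference is settled. Within WT, the share in mt:CoIII (49.0%) and in mt:CoII (58.8%) did not differ beyond counting error (odds ratio 0.676, 0.185 to 2.35, p = 0.578 by Fisher's exact test). The WT share over both transcripts was below the 60.8% of the other 7 transcripts (115 of 189), also within counting error (odds ratio 0.685, 0.374 to 1.25, p = 0.195 by Fisher's exact test).

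The rarer substitutions are given as counts, without a test. G was the base at 12 of 49 WT errors of mt:CoIII (24.5%, 14.6 to 38.1), of which 8 were G-to-T, 2 G-to-A and 2 G-to-C, while mt:CoII had 1 WT error at G, a G-to-T. In the other transcripts, 36 of 189 WT errors were at G (19.0%), which lies inside the interval of mt:CoIII, and 22 were G-to-T. No E423P error of either transcript was at G, against 7 of 36 in the other transcripts. A-to-T made up 1 of 9 E423P and 3 of 17 WT errors in mt:CoII, and 1 of 6 E423P and 8 of 49 WT errors in mt:CoIII. T-to-C, which is rare in the lists, was found 3 times in mt:CoII in E423P and 2 times in WT. mt:CoIII had no T-to-C error in E423P and 2 in WT. The other transcripts together had 1 T-to-C error among 36 in E423P and 2 among 189 in WT. Thus 3 of the 4 T-to-C errors of E423P and 4 of the 6 of WT lay in mt:CoII and mt:CoIII. This count was picked after its values were seen. The list of mt:CoIII also held 1 of the 2 C-to-G errors of E423P, where WT had none.

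**Figure D4:**
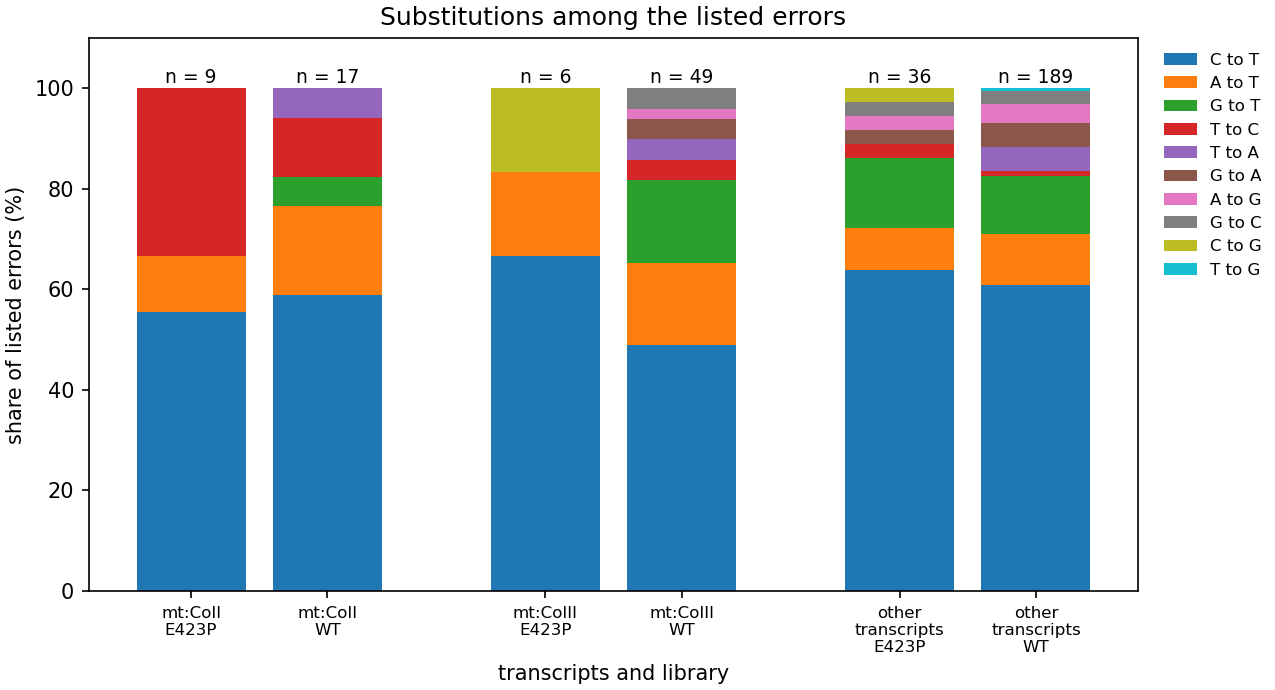
Share of listed errors (y axis, %) by substitution in mt:CoII, mt:CoIII and the other 7 transcripts (x axis), E423P left of WT, with the number of errors above each bar. C-to-T (blue) is the largest class in each bar, T-to-C (red) takes 3 of 9 errors in mt:CoII in E423P, and G-to-T (green) takes 8 of 49 in mt:CoIII in WT. In the other transcripts, G-to-T takes 22 of 189 in WT.

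The E423P errors of mt:CoII were 8 changes. The changes are written as the reference base, the position as listed and the listed base. A419T had a depth of 105, T430C of 127, T468C of 179, C597T of 294 and T618C of 160, each with 1 error. C562T had 1 error at a depth of 226 in E423P and 1 at 296 in WT. C643T had 1 error at a depth of 220 in E423P and 1 at 245 in WT. C654T had 2 errors at a depth of 207 (0.966%, 0.265 to 3.45) in E423P and was not listed in WT.

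The E423P errors of mt:CoIII were 6 changes with 1 error each. C89T had a depth of 120, C109T of 103, A180T of 199, C352T of 158, C369T of 140 and C573G of 108. None of them was listed in WT at the same position, and the nearest WT errors to C352T and C369T were C353T at a depth of 454 and C371T at 384. Changes listed in both libraries thus numbered 2 of 8 E423P changes in mt:CoII, 0 of 6 in mt:CoIII and 10 of 25 in mt:CoI, against 13 of 49 (26.5%) over all transcripts. With 1 error at such depths, a change absent from the other list is not shown to be missing in that library.

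Repeated errors at a position were more common in WT, whose list is longer and whose depths were higher. No listed change reached 1% of its depth, and the filters of the lists are not given. The 6 E423P positions of mt:CoIII had depths from 103 to 199, where 2 errors would exceed 1%. Repeats can therefore not be compared between the libraries. In mt:CoII, C435T was found 3 times at a depth of 310 in WT (0.968%, 0.330 to 2.81) and T411C 2 times at 309 (0.647%, 0.178 to 2.33), the only T-to-C change with more than 1 error in either transcript. In mt:CoIII, 7 changes were found 2 times each in WT and none 3 times. These were C218T at a depth of 306, C230T at 315 and C590T at 443, with G61T at 428, G583T at 430, A401T at 244 and T578A at 366. Their shares ran from 0.451% for C590T to 0.820% for A401T. The other 12 changes of mt:CoII and 35 of mt:CoIII in WT had 1 error each. Some WT errors lay on neighbouring bases, in mt:CoII at positions 523 and 524 and in mt:CoIII at 551 and 552, 601 and 602, and 637 and 638. Whether such neighbours came from the same molecules is not recorded in the lists.

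Codon positions could not be assigned, because no transcript sequence was at hand to settle if counting begins at 0 or at 1. The remainder of the listed position divided by 3 was used in its place. Remainder 0 is the third codon position if counting starts at 1, and the first codon position if it starts at 0. Errors of mt:CoII and mt:CoIII lay at remainder 0 in 8 of 15 cases in E423P (53.3%, 30.1 to 75.2) and in 16 of 66 in WT (24.2%, 15.5 to 35.8), an odds ratio of 3.51 (0.947 to 13.4, p = 0.0562 by Fisher's exact test, adjusted over the 3 remainders p = 0.169). Remainder 1 held 5 E423P and 27 WT errors, and remainder 2 held 2 and 23 (adjusted p = 0.771 and 0.195 by Fisher's exact test). Within WT, remainder 0 held 9 of 49 errors in mt:CoIII and 7 of 17 in mt:CoII (odds ratio 0.328, 0.0826 to 1.30, adjusted p = 0.293 by Fisher's exact test). The 7 errors of mt:CoII included C435T 3 times and T411C 2 times. With each change counted a single time, remainder 0 held 9 of 42 and 4 of 14 (odds ratio 0.687, 0.148 to 3.71).

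Compared with the other 7 transcripts, remainder 0 was more frequent in the pair in the E423P library. It held 8 of 15 errors of mt:CoII and mt:CoIII in E423P, against 4 of 36 in the other transcripts (11.1%, odds ratio 8.63, 1.75 to 51.5, p = 0.00263 and adjusted p = 0.00788 by Fisher's exact test). In WT it held 16 of 66 errors of the pair and 28 of 189 in the other transcripts (14.8%, odds ratio 1.84, 0.855 to 3.85, p = 0.0903 and adjusted p = 0.136 by Fisher's exact test). Remainders were chosen for testing only after the values were known. Among the 8 E423P errors of the pair, C597T, T618C and C654T (2 errors) lay beyond position 562 of mt:CoII, the stretch with the highest depth ratios. With each change counted a single time, the E423P comparison had 7 of 14 against 4 of 35 (odds ratio 7.34, adjusted p = 0.0207 by Fisher's exact test). With C-to-T errors alone, the E423P difference had 4 of 9 against 2 of 23 and an adjusted p of 0.115 in Fisher's exact test. The WT difference with C-to-T alone had 7 of 34 against 6 of 115 (odds ratio 4.65, 1.23 to 18.2, adjusted p = 0.0329 by Fisher's exact test). Of these 7 errors, 3 were the same change, C435T of mt:CoII, and C-to-T alone was not retested without repeats. Over all substitutions, counting each change a single time gave 13 of 56 against 27 of 167 in WT (odds ratio 1.56, adjusted p = 0.234 by Fisher's exact test). The bases of the transcripts at each remainder were not counted, so the part of base composition in these differences was not tested.

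The remainders of the WT errors are given by base as counts, without a test. Of 12 errors at G in mt:CoIII, 11 lay at remainder 1, and of 24 errors at C, 13 lay at remainder 2, 8 at remainder 1 and 3 at remainder 0. In mt:CoII, the 10 WT errors at C lay 4 at remainder 0, 4 at remainder 1 and 2 at remainder 2. In the other transcripts, 6 of 115 WT errors at C lay at remainder 0, 40 at remainder 1 and 69 at remainder 2. The C errors of mt:CoIII were thus ordered over the remainders as in the other transcripts, and the 10 C errors of mt:CoII were too few to order.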

How the data were processed

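Errors in mitochondrial RNA were analysed in 1 E423P and 1 WT library (TruSeq RNA kit, per the labels' protocols). Other samples were not analysed here. The counts, as deposited by the authors, are the errors of each substitution at a position of a transcript, the depth there and the summed coverage. FastQC, cutadapt, Bowtie2 and SAMtools are named in the submitters' processing notes. The error caller, filters, strand and build are not given in the sources used here. A position with several errors stood on as many lines, which was checked, and each line was 1 error. Of the table of gene counts, only coordinates were used: its 2 columns of samples match no label, so levels of the transcripts are not reported.

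Shares carry 95% Wilson intervals. Fisher's exact tests, all two-sided, compared them, with conditional odds ratios and exact intervals, adjusted by Benjamini-Hochberg over the 9 transcripts (8 where mt:CoI was left out), the 36 pairs of transcripts or the 3 remainders (Python 3.11.15, scipy 1.17.1, numpy 2.4.6, pandas 2.3.3, matplotlib 3.10.9). The test of shares was tried on simulated lists with known answers. The lists carry no molecular identifiers, so intervals cover counting error only. The p-values measure a difference of 2 libraries, or of transcripts within 1 library. The transcripts, tests and alternatives were chosen with earlier results of these data known. Named changes were all E423P changes, changes with 2 or more errors and changes in both libraries; C353T, C371T and the neighbouring positions were added after their values were seen.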

Additional observations from a re-analysis of the deposited data

How the results depend on the processing

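The odds ratio of the mt:CoII share (E423P over WT) stayed above 1 under all 6 alternatives, from 1.13 to 4.75, with adjusted p from 0.0264 to 1 in Fisher's exact test. It passed the adjusted threshold with only positions at a depth of 150 or more (odds ratio 4.75, adjusted p = 0.0414, Fisher's exact test) and without mt:CoI errors in the total (4.45, adjusted p = 0.0264, Fisher's exact test). The depth cut kept 7 of the 9 E423P errors in mt:CoII but 29 of all 51, so its result is not separate from depth. Leaving out mt:CoI removed 26 of 51 E423P errors and 102 of 255 WT errors, which by itself raises the odds ratio. The cause was not tested. The lowest odds ratio came without mt:CoII positions from 562 on, which removes 6 of the 9 E423P errors and so tests nothing. The share of mt:CoIII stayed below 1 (0.297 to 0.745) and passed no adjusted threshold in 6 alternatives. The 3 comparisons of C-to-T kept their direction and passed no threshold in 2 alternatives each. With each listed position counted a single time, the ratio of median depths (E423P over WT) was 0.534 in place of 0.668 for mt:CoII and 0.380 in place of 0.375 for mt:CoIII.

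The ratio of mt:CoII to mt:CoIII errors kept its direction in 5 alternatives (1.62, also without positions from 562 on, to 10.8, adjusted p 0.0990 to 1, Fisher's exact test). For remainder 0 in the pair, E423P against WT, a depth of 150 or more gave 6.22 (adjusted p = 0.0465, Fisher's exact test). The cut left 9 of the 15 E423P errors of the pair, and here too it selects by depth. With C-to-T alone, the odds ratio at remainder 1 crossed 1, to 1.45 for E423P against WT and to 1.04 for the pair against the other transcripts in E423P, both within counting error. At remainder 2, a depth of 150 or more left 0 of 9 errors of the pair in E423P against 9 of 20 in the others (adjusted p = 0.0406, Fisher's exact test).

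No paired analysis was possible because only 1 library of each genotype has an error list here, and for the same reason no library was left out. The tests of the third codon position and of protein changes were not run, since no transcript sequence was used. The 15 E423P errors of the pair limit every comparison that uses the E423P library.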
